A study of Mus musculus with 12 samples.

Results

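The 49 genes described here encode parts of the machinery that makes ribosomes: RNA polymerase I and its initiation factors, proteins of the small nucleolar ribonucleoproteins (snoRNPs), abundant nucleolar proteins, assembly factors of both ribosomal subunits and nucleolar RNA helicases. They were chosen by name from the genes of the count files, with earlier results of these data known. All 49 of the 49 were found among the 23479 gene symbols and passed the filter on low counts, as did 10981 genes in all. RNA was measured in splenic CD4+ T cells of C57BL/6J mice (WT) and of Sirt2-/- mice on the same C57BL/6 background (KO), which lack the protein deacetylase SIRT2. RNA of either genotype was extracted from freshly isolated cells, which the labels call naïve (0 h), or from cells kept for 24 h in wells coated with anti-CD3 (antibody 145-2C11 at 5 µg/ml), which engages the T cell receptor complex. Other cell types had been removed, and per the labels the purity by flow cytometry was over 95%. There were 3 libraries in each of 4 groups: WT 0 h and WT 24 h, and likewise KO 0 h and KO 24 h. The age and sex of the mice, and whether the libraries of a group came from separate mice, are not given in the labels, so p-values here rest on how far the libraries of a group lie apart, and that spread may be technical.

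Ribosome production begins in the nucleolus, where RNA polymerase I transcribes a long precursor that holds the 18S, 5.8S and 28S rRNAs. Box C/D and box H/ACA snoRNPs modify the precursor, and assembly factors fold and cleave it while ribosomal proteins are added, first in a large complex called the small-subunit processome and then in separate particles for the small (40S) and large (60S) subunits. Resting lymphocytes have small nucleoli, and they build more ribosomes as they grow after antigen receptor signals.

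The libraries held between 3628860 and 10025352 reads in genes, and KO 24 h was the shallowest group (3628860 to 5330136 reads, against 4681105 to 8019118 in WT 24 h). Sirt2 lay between 67.9 and 85.4 CPM (a read count scaled to the size of its library, corrected with TMM factors) in WT 0 h, 62.3 and 76.3 in WT 24 h, 9.04 and 16.2 in KO 0 h and 9.52 and 19.7 in KO 24 h, so each library matched its label. All 8 CD4 T cell markers found in the files were read in each group, with summed levels of 6722 to 7238 CPM in WT 0 h, 7056 to 7915 in KO 0 h, 2921 to 3153 in WT 24 h and 2782 to 3221 in KO 24 h. Markers of B cells summed to 16.8 to 29.9 CPM at 0 h and 2.93 to 7.22 CPM at 24 h over both genotypes, and the erythroid genes Hba-a1 and Hbb-bs had no read in any group. The 2 CD8 T cell markers, Cd8a and Cd8b1, summed to 17.3 to 18.5 CPM in WT 0 h and 30.8 to 35.8 CPM in KO 0 h, and overlapped between the genotypes at 24 h.

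After 24 h of anti-CD3, 44 of the 49 genes had risen in WT and 43 of 49 in KO, and 0 had fallen in either genotype (edgeR quasi-likelihood test, Benjamini-Hochberg adjusted p under 0.05 over all genes tested). At an unadjusted p under 0.05, 0 of the 49 were lower in edgeR, and DESeq2 called 45 higher in WT, 43 higher in KO and 0 lower. Of all genes tested, 20.2% rose and 20.5% fell in WT, and 19.4% rose and 21.0% fell in KO. The median log2 fold change of the 49 was 0.70 in WT and 0.68 in KO, beside 0.00 in each over all genes, and single genes ranged from -0.25 (Nop10) to 1.56 (Nop16) in WT and from 0.00 (Nop10) to 1.45 (Gnl3) in KO. At least a doubling with a passed test was seen for 12 of the 49 in WT, where 5.84% of all genes reached it, and for 15 of 49 in KO, where 5.98% did. In WT, the 3 libraries at 24 h were all above the 3 at 0 h for 45 of the 49 genes (24.6% of all genes), and in KO for 42 of the 49 (23.9% of all genes).

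**Figure D1:**
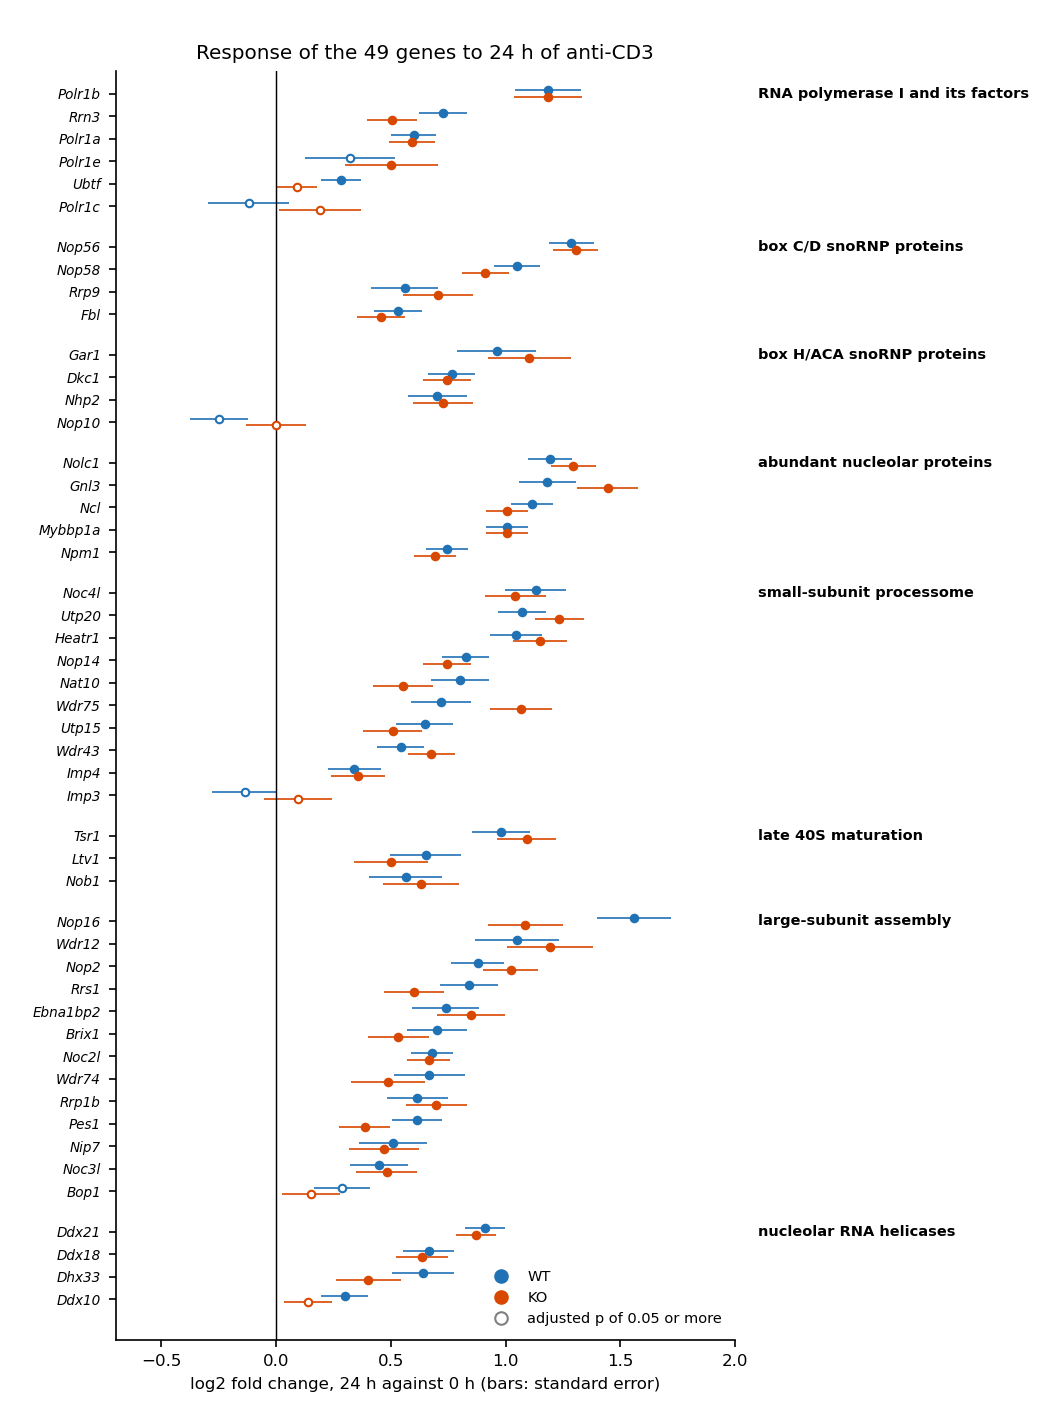
Log2 fold change of 24 h against 0 h (x axis) for each of the 49 genes (y axis, grouped by role) in WT (blue) and KO (orange); bars are standard errors and open circles mark an adjusted p of 0.05 or more. Nearly all points lie to the right of 0, with Nop16 farthest in WT at 1.56 and Gnl3 farthest in KO at 1.45, while Polr1c, Nop10 and Imp3 lie near 0.

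Together, the 49 genes took 0.396, 0.397 and 0.420% of the reads in genes in the WT 0 h libraries and 0.824, 0.800 and 0.874% in the WT 24 h libraries. In KO the shares were 0.382, 0.396 and 0.356% at 0 h and 0.790, 0.791 and 0.745% at 24 h. The lowest 24 h library stood well above the highest 0 h library in both genotypes. The values are relative to all gene reads of a library. In these bulk samples, a change in the share of cells that express a gene cannot be told apart from a change in its RNA per cell. The T cell markers listed above fell over the same interval (7 of 8 in WT, 8 of 8 in KO), and of 5 activation markers 3 rose (Il2ra, Cd69 and Tfrc) and 2 fell (Cd44 and Mki67) in each genotype. Their part in the rise of the 49 genes was not tested.

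Among RNA polymerase I and its factors, 4 of 6 genes rose in each genotype: Polr1a, Polr1b and Rrn3 in both, Ubtf in WT and Polr1e in KO. The second largest catalytic subunit, Polr1b, changed most, with 19.9, 20.4 and 24.5 CPM in WT 0 h, 20.7, 20.7 and 17.5 in KO 0 h, 53.2, 50.3 and 44.6 in WT 24 h and 48.0, 45.6 and 40.6 in KO 24 h. All 6 libraries at 24 h were well above all 6 at 0 h. Polr1b rose 2.27-fold in WT (log2 fold change 1.18, SE 0.14, adjusted p = 3.44e-09) and 2.27-fold in KO (log2 fold change 1.18, SE 0.15, adjusted p = 7.93e-09). Rrn3 encodes TIF-IA, the factor that links the polymerase to its promoter complex and through which growth signals reach it. Its level was 56.3, 56.5 and 70.1 CPM in WT 0 h, 56.5, 64.4 and 64.0 in KO 0 h, 104, 93.9 and 106 in WT 24 h and 86.8, 88.4 and 86.3 in KO 24 h. The 24 h libraries lay above the 0 h libraries in both genotypes, and those of KO 24 h lay below those of WT 24 h. Rrn3 rose in WT (log2 fold change 0.73, SE 0.11, adjusted p = 2.19e-07) and in KO (log2 fold change 0.50, SE 0.11, adjusted p = 0.000183). Polr1a, which encodes the largest subunit, had 77.4, 92.8 and 109 CPM in WT 0 h, 87.3, 90.2 and 94.1 in KO 0 h, 141, 145 and 139 in WT 24 h and 137, 139 and 132 in KO 24 h. No 24 h library fell into the 0 h range, which was widest in WT. The increase was 1.51-fold in WT and 1.51-fold in KO, with log2 changes of 0.60 and 0.59 (SE 0.10 and 0.10).

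Polr1c, a subunit that RNA polymerases I and III share, did not pass in either genotype. It stood at 26.2, 19.0 and 24.5 CPM in WT 0 h, 19.6, 20.7 and 26.7 in KO 0 h, 20.5, 20.3 and 23.2 in WT 24 h and 26.7, 20.3 and 29.4 in KO 24 h, and the groups overlapped throughout. Ubtf encodes UBF, which binds along the rRNA genes. Its libraries read 143, 140.5 and 162 CPM in WT 0 h, 156, 139 and 141 in KO 0 h, 175, 179 and 188 in WT 24 h and 154, 158 and 153 in KO 24 h. Only the WT libraries separated by time: Ubtf rose in WT (log2 fold change 0.28, SE 0.09, adjusted p = 0.00828) and did not pass in KO (log2 fold change 0.09, SE 0.09, adjusted p = 0.455). The genotype by time interaction of Ubtf did not pass either (log2 difference -0.19, 95% interval -0.44 to 0.06). Polr1e showed the opposite pattern of calls with an adjusted p of 0.191 in WT and 0.0414 in KO. The KO call was lost in some refits. The interaction of Polr1e did not pass (log2 difference 0.18, 95% interval -0.39 to 0.74).

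**Figure D2:**
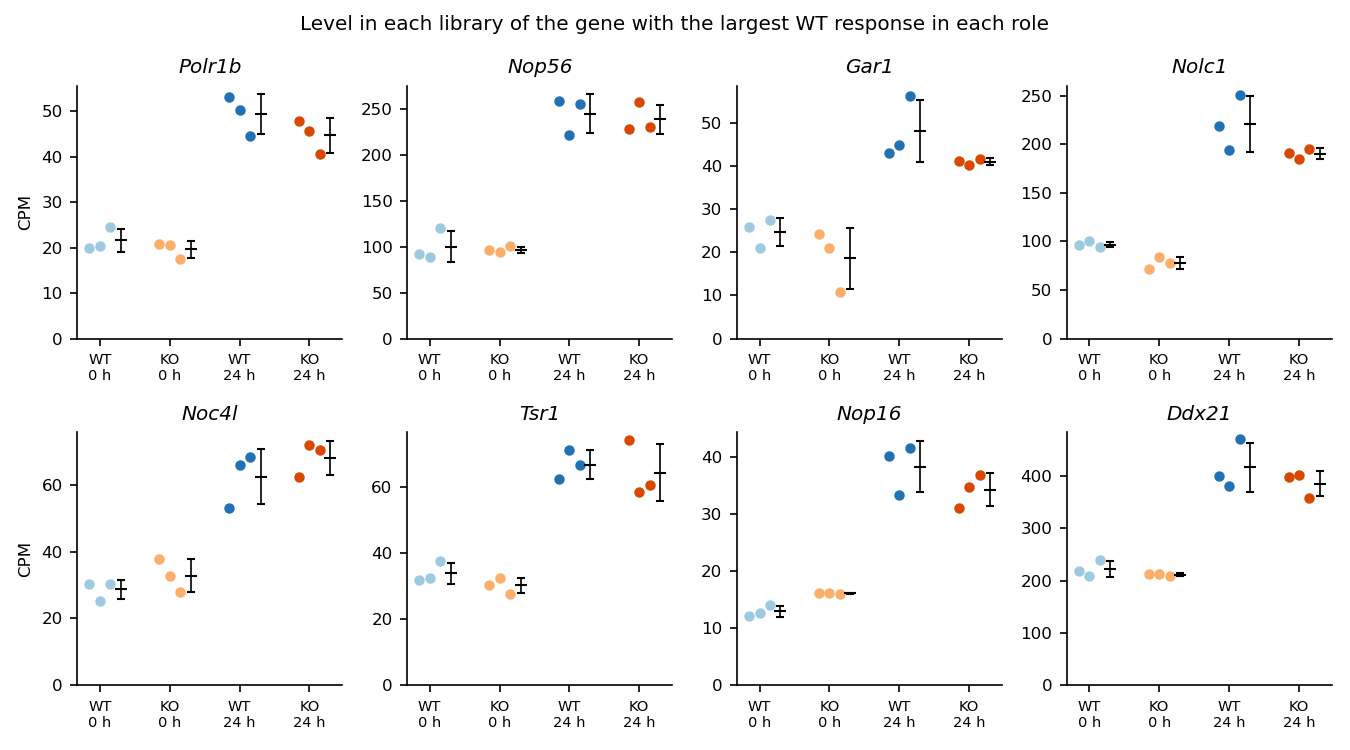
Level in CPM (y axis, from 0) of the gene with the largest WT response in each of 8 roles, in each library of the 4 groups (x axis); points are libraries and the black marks give the mean and SD of 3. In each panel the 24 h libraries of both genotypes stand above the 0 h libraries, as for Nop56 with 221 CPM in its lowest 24 h library and 119.9 CPM in its highest 0 h library.

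The box C/D snoRNPs guide 2′-O-methylation of rRNA, and the genes for their proteins rose in 4 of 4 cases in each genotype. Nop56, a scaffold protein of these particles, had 91.6, 88.5 and 119.9 CPM in WT 0 h, 95.8, 93.6 and 100.4 in KO 0 h, 259, 221 and 255 in WT 24 h and 228, 257 and 231 in KO 24 h. It had more than doubled in both genotypes without overlap (log2 fold change 1.29, SE 0.10, adjusted p = 4.95e-15 in WT; log2 fold change 1.30, SE 0.10, adjusted p = 4.71e-15 in KO). Its partner Nop58 stood at 70.2, 71.6 and 79.8 CPM in WT 0 h, 77.8, 67.6 and 66.3 in KO 0 h, 154, 141 and 166 in WT 24 h and 128, 146 and 126 in KO 24 h. The time points were again fully apart, with log2 fold changes of 1.05 in WT and 0.91 in KO. Rrp9, a U3-specific protein, read 33.6, 28.5 and 25.4 CPM in WT 0 h, 21.8, 21.8 and 27.7 in KO 0 h, 47.6, 38.1 and 43.4 in WT 24 h and 37.7, 37.9 and 40.1 in KO 24 h. The times did not overlap in either genotype, and the rise was 0.56 (SE 0.15) in WT and 0.71 (SE 0.15) in KO on the log2 scale. Fbl encodes fibrillarin, the methyltransferase itself, and changed least of these genes. It had 91.6, 78.8 and 87.5 CPM in WT 0 h, 84.3, 72.0 and 95.3 in KO 0 h, 117, 121 and 134 in WT 24 h and 105, 125 and 114 in KO 24 h, without overlap between the times in either genotype. Fbl rose 1.45-fold in WT (log2 fold change 0.53, SE 0.10, adjusted p = 3.97e-05) and 1.37-fold in KO (log2 fold change 0.46, SE 0.11, adjusted p = 0.000445). Nop56 and Fbl have copies of at least 95% identity over part of their transcripts in the mouse annotation. The copies are processed pseudogenes and, for Fbl, a transcript under another gene's name. How the reads of Nop56 and Fbl were assigned is therefore uncertain.

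The box H/ACA snoRNPs guide pseudouridylation, and 3 of the 4 genes for their core proteins rose in each genotype while the fourth, Nop10, did not pass. Gar1 stood at 25.8, 21.1 and 27.4 CPM in WT 0 h, 24.2, 21.0 and 10.7 in KO 0 h, 43.0, 45.0 and 56.4 in WT 24 h and 41.2, 40.2 and 41.8 in KO 24 h. The 24 h libraries were above all 0 h libraries, and KO 0 h replicate 3 was the lowest of the 12. Gar1 rose 1.95-fold in WT (log2 fold change 0.96, SE 0.17, adjusted p = 1.6e-05) and 2.15-fold in KO (log2 fold change 1.10, SE 0.18, adjusted p = 3.68e-06). Dkc1 encodes dyskerin, the pseudouridine synthase, and had 80.4, 63.6 and 80.8 CPM in WT 0 h, 65.3, 70.0 and 68.3 in KO 0 h, 123, 125 and 134 in WT 24 h and 103, 121 and 118 in KO 24 h. Nhp2 had 39.8, 46.1 and 54.1 CPM in WT 0 h, 53.6, 46.3 and 37.7 in KO 0 h, 73.1, 66.8 and 89.1 in WT 24 h and 69.7, 86.5 and 73.2 in KO 24 h. Both genes were higher at 24 h in every library, with log2 fold changes in WT of 0.76 for Dkc1 and 0.70 for Nhp2. The smallest protein of the complex is encoded by Nop10, which read 66.2, 59.7 and 53.1 CPM in WT 0 h, 54.3, 53.9 and 59.3 in KO 0 h, 47.2, 49.7 and 52.9 in WT 24 h and 43.2, 58.2 and 66.7 in KO 24 h. In WT the 3 libraries at 24 h lay just below the 3 at 0 h, and Nop10 was the 1 gene of the 49 with that arrangement (24.8% of all genes had it), whereas in KO the times overlapped. Nop10 did not pass in WT (log2 fold change -0.25, SE 0.13, adjusted p = 0.114) or in KO (adjusted p = 0.998).

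All 5 genes for abundant nucleolar proteins rose in both genotypes, and 4 of the 5 at least doubled in each. Nolc1, the phosphoprotein chaperone of snoRNPs also called Nopp140, stood at 96.0, 99.9 and 94.4 CPM in WT 0 h, 71.3, 84.4 and 77.6 in KO 0 h, 219, 194 and 251 in WT 24 h and 191, 185 and 195 in KO 24 h. The KO libraries at 0 h were all under the WT libraries at 0 h, and the 24 h libraries were all far above both. Nolc1 rose 2.29-fold in WT (log2 fold change 1.19, SE 0.10, adjusted p = 1.69e-14) and 2.45-fold in KO (log2 fold change 1.29, SE 0.10, adjusted p = 2.85e-15). Gnl3 encodes nucleostemin, a GTP-binding protein first known from stem cells. It read 29.97, 35.7 and 27.8 CPM in WT 0 h, 23.2, 21.1 and 23.0 in KO 0 h, 75.3, 72.4 and 64.7 in WT 24 h and 61.3, 60.1 and 62.2 in KO 24 h. Levels at 24 h exceeded those at 0 h in each genotype, and KO lay below WT at both times. It changed by 1.18 in WT and 1.45 in KO on the log2 scale (SE 0.13 and 0.13). Ncl encodes nucleolin, and had 957, 879 and 966 CPM in WT 0 h, 865, 942 and 825 in KO 0 h, 2002, 1829 and 2232 in WT 24 h and 1825, 1918 and 1541 in KO 24 h. Npm1 encodes nucleophosmin, which also shuttles to the cytoplasm, and read 761, 699 and 826 CPM in WT 0 h, 689, 735 and 607 in KO 0 h, 1248, 1178 and 1406 in WT 24 h and 1057, 1183 and 1043 in KO 24 h. For both genes every 24 h library was above every 0 h library. Ncl rose 2.16-fold in WT (log2 fold change 1.11, SE 0.09, adjusted p = 5.32e-14), and Npm1, the gene of the 5 with the smallest change, rose 1.68-fold (log2 fold change 0.74, SE 0.09, adjusted p = 2.69e-09). Npm1 has several processed pseudogenes of at least 95% identity, which makes its read assignment uncertain. Mybbp1a, whose product was found as a partner of the Myb protein, rose by 1.01 in WT and 1.01 in KO on the log2 scale.

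In the small-subunit processome, 9 of 10 genes rose in each genotype, with a median log2 fold change of 0.76 in WT and 0.71 in KO. Noc4l, whose product pairs with Nop14, had 30.3, 25.4 and 30.4 CPM in WT 0 h, 37.8, 32.8 and 28.1 in KO 0 h, 53.2, 65.9 and 68.5 in WT 24 h and 62.4, 72.0 and 70.4 in KO 24 h. Its 24 h libraries were all above its 0 h libraries, and it rose 2.19-fold in WT (log2 fold change 1.13, SE 0.13, adjusted p = 1.35e-09). Utp20, a very large helical-repeat scaffold, stood at 58.0, 61.5 and 55.8 CPM in WT 0 h, 52.0, 47.6 and 43.1 in KO 0 h, 120.0, 126 and 123 in WT 24 h and 127, 100.3 and 110.5 in KO 24 h. The 2 times were far apart, and KO 0 h lay below WT 0 h. Utp20 rose by 1.07 in WT and 1.23 in KO on the log2 scale. Heatr1, a further helical-repeat protein that is also needed for transcription of the rRNA genes, read 55.3, 69.1 and 54.8 CPM in WT 0 h, 40.5, 50.03 and 60.4 in KO 0 h, 122, 118 and 129.9 in WT 24 h and 116, 106 and 110.2 in KO 24 h. It rose by 1.04 in WT and 1.15 in KO (log2), again without overlap between times. Nop14, Nat10, Wdr75, Utp15, Wdr43 and Imp4 rose by between 0.34 (Imp4) and 0.83 (Nop14) in WT. Imp3, a partner of Imp4 in binding U3 snoRNA, was the exception, with 44.2, 39.9 and 44.9 CPM in WT 0 h, 30.9, 39.4 and 32.9 in KO 0 h, 32.3, 42.1 and 42.0 in WT 24 h and 29.8, 42.5 and 37.6 in KO 24 h. The times overlapped in both genotypes and Imp3 did not pass (log2 fold change -0.14, SE 0.14, adjusted p = 0.469 in WT; adjusted p = 0.654 in KO). A transcribed copy is annotated that matches 58.7% of the Imp3 transcript, with a best identity of 96.1%. The count of Imp3 may thus hold or lack reads of the other locus.

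The 3 genes of late 40S maturation rose in each genotype. Tsr1, a GTPase-like factor on the pre-40S particle, had 31.7, 32.3 and 37.4 CPM in WT 0 h, 30.4, 32.4 and 27.7 in KO 0 h, 62.5, 71.1 and 66.7 in WT 24 h and 74.1, 58.4 and 60.5 in KO 24 h. It rose without overlap, 1.97-fold in WT (log2 fold change 0.98, SE 0.13, adjusted p = 1.14e-08). The annotation gives 34.2% of the exon bases of Tsr1 to Srr as well, and the strand setting of the counting is not given in the sources used here, so reads of the pair may be mixed. Ltv1, a further factor of the pre-40S particle, stood at 31.7, 26.3 and 26.0 CPM in WT 0 h, 23.7, 35.8 and 21.7 in KO 0 h, 39.8, 42.0 and 49.5 in WT 24 h and 41.4, 39.0 and 33.8 in KO 24 h, and its KO groups overlapped in 1 library, KO 0 h replicate 2. Nob1, the endonuclease that makes the final cut of 18S rRNA, read 18.4, 27.3 and 23.7 CPM in WT 0 h, 20.6, 19.8 and 17.3 in KO 0 h, 32.3, 33.8 and 36.8 in WT 24 h and 26.5, 33.0 and 30.4 in KO 24 h. All 24 h libraries of Nob1 were above the 0 h libraries of the same genotype. Ltv1 rose by 0.65 and Nob1 by 0.57 in WT, and by 0.50 and 0.63 in KO on the log2 scale. The KO value of Ltv1 was 0.77 without KO 0 h replicate 2. Its call was lost without KO 0 h replicate 1 (0.43, edgeR adjusted p = 0.0515), KO 0 h replicate 3 (0.40, adjusted p = 0.0561) or KO 24 h replicate 1 (0.44, adjusted p = 0.063).

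Of the 13 large-subunit assembly genes, 12 rose in each genotype, and Bop1 was the gene that did not pass in either. In WT Bop1 passed in 6 of 19 alternatives, DESeq2 among them. Nop16 had the largest response of all 49 in WT, with 12.1, 12.6 and 14.0 CPM in WT 0 h, 16.1, 16.1 and 16.0 in KO 0 h, 40.2, 33.3 and 41.6 in WT 24 h and 31.1, 34.8 and 36.8 in KO 24 h. Its 0 h libraries were tight, those of KO 0 h all lay above those of WT 0 h, and the 24 h libraries of the genotypes overlapped. Nop16 rose 2.95-fold in WT (log2 fold change 1.56, SE 0.16, adjusted p = 5.82e-11) and 2.12-fold in KO (log2 fold change 1.09, SE 0.16, adjusted p = 4.12e-07). Wdr12 and Bop1 encode partners of Pes1 in the PeBoW complex, which is needed to process the precursor of 28S rRNA. Wdr12 had 10.2, 17.5 and 16.4 CPM in WT 0 h, 12.4, 13.7 and 15.6 in KO 0 h, 33.6, 32.3 and 26.6 in WT 24 h and 32.6, 26.9 and 35.8 in KO 24 h, and Bop1 had 44.7, 41.1 and 38.9 CPM in WT 0 h, 44.0, 42.0 and 41.2 in KO 0 h, 50.03, 53.5 and 48.4 in WT 24 h and 50.3, 44.0 and 47.3 in KO 24 h. Both were higher in all 24 h libraries than in the 0 h libraries of the same genotype, though narrowly so for Bop1 in KO. Wdr12 doubled (log2 fold change 1.05, SE 0.18, adjusted p = 6.07e-06 in WT), whereas Bop1 gave log2 fold change 0.29, SE 0.12, adjusted p = 0.0544 in WT and log2 fold change 0.15, SE 0.13, adjusted p = 0.351 in KO. Pes1 itself read 80.5, 63.0 and 65.2 CPM in WT 0 h, 85.8, 66.3 and 69.1 in KO 0 h, 103, 101 and 115 in WT 24 h and 98.3, 96.5 and 95.8 in KO 24 h. Without overlap between times, it rose by 0.61 in WT and 0.39 in KO on the log2 scale. Pes1 has processed pseudogenes of at least 95% identity, so how its reads were assigned is uncertain. The rRNA methyltransferase gene Nop2 stood at 47.1, 48.1 and 45.7 CPM in WT 0 h, 32.0, 40.02 and 35.8 in KO 0 h, 81.8, 81.4 and 95.6 in WT 24 h and 75.8, 75.7 and 65.9 in KO 24 h. KO lay below WT at both times, and the 24 h libraries lay above the 0 h libraries. Nop2 rose by 0.88 in WT and 1.02 in KO on the log2 scale. The other 8 genes, Rrs1, Ebna1bp2, Brix1, Noc2l, Wdr74, Rrp1b, Nip7 and Noc3l, rose by between 0.45 (Noc3l) and 0.84 (Rrs1) in WT on the log2 scale. The annotation gives 20.9% of the exon bases of Noc2l to Samd11 as well, so reads of that pair may be mixed.

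Nucleolar RNA helicases remodel the pre-ribosomal RNA, and their genes rose in 4 of 4 cases in WT and 3 of 4 in KO. Ddx21, a helicase that also associates with genes transcribed by RNA polymerase II, had 218, 209 and 239.7 CPM in WT 0 h, 213, 213 and 208 in KO 0 h, 401, 381 and 471 in WT 24 h and 399, 402 and 358 in KO 24 h. It was higher in every 24 h library, by 0.91 in WT and 0.87 in KO. Ddx18 had 57.3, 67.9 and 56.7 CPM in WT 0 h, 54.9, 62.0 and 52.2 in KO 0 h, 86.6, 92.3 and 109 in WT 24 h and 83.8, 92.6 and 86.1 in KO 24 h, and Dhx33 had 34.6, 33.4 and 32.8 CPM in WT 0 h, 27.0, 31.6 and 40.7 in KO 0 h, 53.0, 51.1 and 52.9 in WT 24 h and 44.1, 40.02 and 46.0 in KO 24 h. Ddx18 was fully apart by time, whereas for Dhx33 KO 0 h replicate 3 reached above the lowest KO 24 h library. Their WT log2 fold changes were 0.66 and 0.64. Ddx18 has processed pseudogenes of at least 95% identity, which makes its read assignment uncertain. Ddx10 changed least, with 75.0, 72.6 and 77.2 CPM in WT 0 h, 78.7, 71.2 and 71.4 in KO 0 h, 96.4, 80.8 and 100.2 in WT 24 h and 81.1, 80.6 and 82.4 in KO 24 h. It rose in WT (log2 fold change 0.30, SE 0.10, adjusted p = 0.0164) and did not pass in KO (log2 fold change 0.14, SE 0.11, adjusted p = 0.315). The WT call of Ddx10 was lost without WT 24 h replicate 1 (edgeR adjusted p = 0.0632) or WT 24 h replicate 3 (adjusted p = 0.0987). The KO call of Dhx33 was lost without KO 0 h replicate 1 (adjusted p = 0.12), KO 24 h replicate 1 (0.0573) or KO 24 h replicate 3 (0.0748).

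Of the 49 genes, 46 had a log2 fold change above 0 in both genotypes. Across the 49, the log2 fold change in WT and that in KO, which come from separate libraries of the same kit, had a Pearson correlation of 0.89 and a Spearman correlation of 0.90. These correlations, and the share of genes above 0 in both genotypes, were not computed over all genes tested. The response was larger in WT for 27 of the 49 (55.1%), beside 51.4% of all genes tested. In the genotype by time interaction, 0 of the 49 genes passed, where 0.00911% of all genes (1 gene) did. At an unadjusted p under 0.05 the edgeR test had 0 of the 49 with a larger rise in KO (298 of 10981 genes). It had 1 of the 49 with a smaller rise in KO (2.52% of all genes). This was Nop16 (log2 difference -0.47, 95% interval -0.94 to -0.01, unadjusted p = 0.0461, adjusted p = 0.942), and 0 of the 49 passed with DESeq2. The next lowest p belonged to Wdr75, with the opposite sign (0.35, 95% interval -0.03 to 0.73, adjusted p = 0.963). Wdr75, a processome protein, read 36.2, 32.6 and 45.2 CPM in WT 0 h, 30.9, 34.5 and 27.5 in KO 0 h, 55.3, 60.5 and 72.0 in WT 24 h and 62.1, 65.2 and 68.2 in KO 24 h. Of its KO libraries, 2 were under all WT libraries at 0 h, and all 3 lay within the WT range at 24 h. Ubtf and Pes1 followed in order of p, both with a smaller rise in KO (interaction log2 differences -0.19 and -0.23). Over the 49 genes the 95% interval of the interaction reached a median of 0.36 to either side of the estimate (0.25 to 0.57 for single genes).

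The promoter sequences of genes that move together were searched for CACGTG, the E-box that MYC with MAX and several other helix-loop-helix proteins bind, using RefSeq promoters of mouse build GRCm38.p6 that run from 250 bases before to 50 bases after the start. An entry was found for 45 of the 49 genes. The motif is its own reverse complement, so a match counts for both strands. A gene was counted if any of its promoter entries held the motif. CACGTG was found for 10 of the 45 (22.2%), beside 8.09% of the 27018 genes with an entry and 12.3% of the 8234 of these that were tested. In the 250 bases before the start alone, 4 of the 45 (8.89%) held it, beside 10.3% of the tested genes with an entry. In the 50 bases after the start alone, 6 of the 45 (13.3%) held it, beside 1.28% of all genes with an entry and 2.02% of the tested ones. These 50 bases are the part of the whole window that the 250 bases leave out. The counts are thus not independent of each other, and none was tested. The 11 matches are printed as windows of 30 bases, 5′ to 3′ on the strand of the gene, with the motif in capitals, to show that the bases beside it differ from gene to gene.
Rrn3, chr16:13780472-13780501 (+ strand): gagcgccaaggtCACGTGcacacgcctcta
Rrn3, chr16:13780639-13780668 (+ strand): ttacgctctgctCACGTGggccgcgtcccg
Mybbp1a, chr11:72441347-72441376 (+ strand): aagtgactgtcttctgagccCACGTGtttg
Utp20, chr10:88826765-88826794 (- strand): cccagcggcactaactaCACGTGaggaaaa
Wdr43, chr17:71616220-71616249 (+ strand): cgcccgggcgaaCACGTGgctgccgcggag
Imp4, chr1:34439696-34439725 (+ strand): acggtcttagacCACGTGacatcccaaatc
Tsr1, chr11:74898092-74898121 (+ strand): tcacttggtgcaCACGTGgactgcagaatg
Ltv1, chr10:13193092-13193121 (- strand): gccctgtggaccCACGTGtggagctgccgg
Pes1, chr11:3963965-3963994 (+ strand): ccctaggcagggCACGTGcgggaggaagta
Nop2, chr6:125131811-125131840 (+ strand): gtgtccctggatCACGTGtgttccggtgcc
Dhx33, chr11:71004450-71004479 (- strand): ccagcacgcctgCACGTGgcgagaaagggg
Rrn3 was the 1 gene with 2 matches. They lie 215 and 48 bases before its start, and the whole stretch of 250 bases before the start is printed to show their spacing, with both motifs in capitals.
Rrn3, chr16:13780449-13780698 (+ strand): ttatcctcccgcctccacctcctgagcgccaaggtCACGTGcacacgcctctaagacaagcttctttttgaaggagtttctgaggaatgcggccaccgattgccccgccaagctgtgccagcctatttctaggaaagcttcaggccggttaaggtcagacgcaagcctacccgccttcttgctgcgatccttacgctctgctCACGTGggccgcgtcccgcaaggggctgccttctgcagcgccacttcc
The matches fell in genes of 6 roles: the initiation factor Rrn3, the nucleolar protein gene Mybbp1a, the processome genes Utp20, Wdr43 and Imp4, the late 40S genes Tsr1 and Ltv1, the large-subunit genes Pes1 and Nop2, and the helicase gene Dhx33. The median log2 fold change in WT was 0.69 over the 10 with it (range 0.34 to 1.07) and 0.70 over the 35 without it (range -0.25 to 1.56), with medians of 0.59 and 0.71 in KO. Nop56 and Nop16, which rose most in WT, were not among the 10. A match is a description of the sequence and does not show that a protein binds there.

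Other genes of the same pathway were counted in the same way, on lists also chosen with earlier results of these data known. Of 104 tested, 59 rose and 3 fell in WT, and 60 rose and 1 fell in KO, beside 20.2% and 19.4% of all genes that rose. Among the other small-subunit genes, 24 of 35 rose in each genotype, led in WT by Rcl1 (1.14), Pno1 (1.11) and Fcf1 (0.98), which act at or near the cleavages that release the 18S precursor. Among the other large-subunit genes, 24 of 38 rose in each genotype, led in WT by Rpf2 (1.20), which brings 5S rRNA into the particle, Ppan (1.18) and Rrp15 (1.07), and Ddx54 fell in WT (-0.24). Of the other RNA polymerase I genes, 3 of 9 rose in WT (Cd3eap 0.77, Taf1d 0.59 and Twistnb 0.48), Znrd1 fell (-0.44; not called with DESeq2), and 2 of 9 rose in KO. Of 14 genes of the RNA exosome, the complex that trims and degrades precursor RNA, 3 rose in WT (Dis3 0.92, Exosc2 0.65 and Skiv2l2 0.43) and 6 in KO. Of 8 RNAs that host snoRNAs, 5 rose in WT, led by Snhg6 (0.99), Snhg7 (0.95) and Snhg5 (0.72), and Snhg8 fell (-0.67). In KO 4 of the 8 rose and 1 fell.

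**Figure D3:**
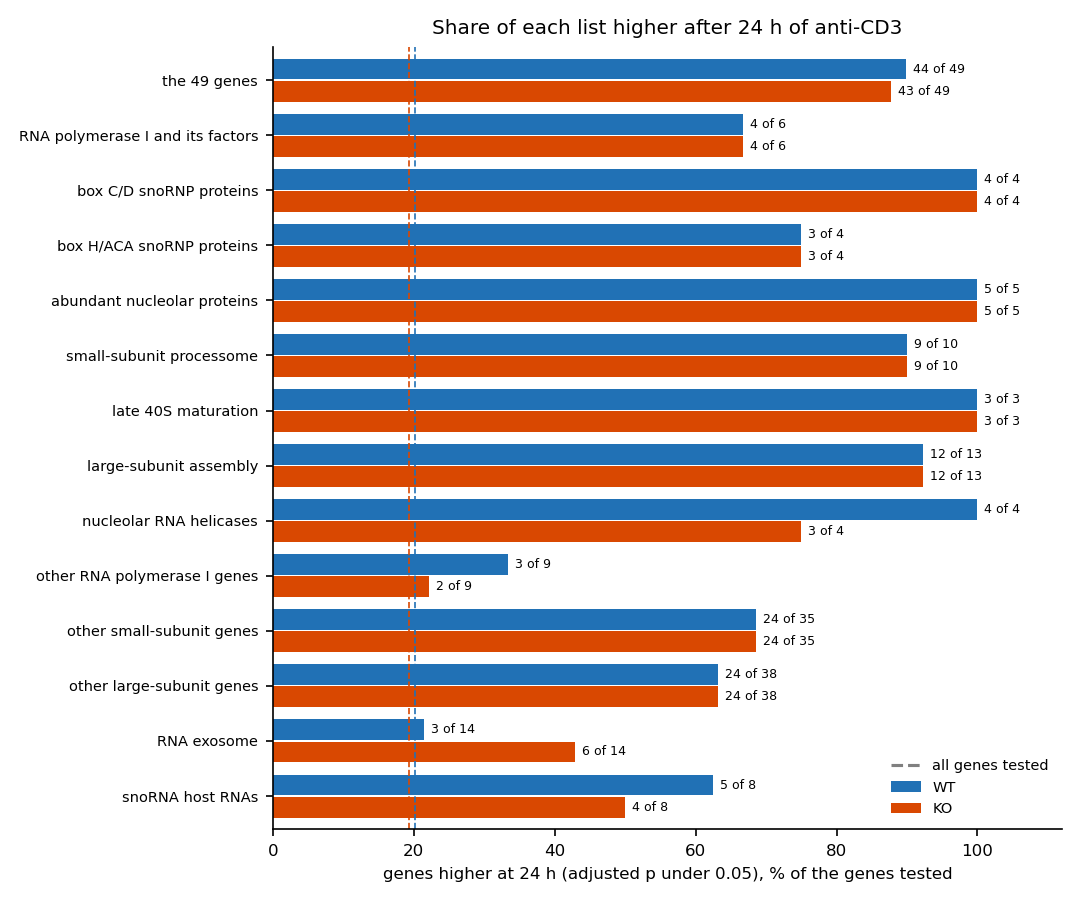
Share of the tested genes of each list (y axis) that were higher at 24 h than at 0 h at an adjusted p under 0.05 (x axis, percent), in WT (blue) and KO (orange), with the count beside each bar; dashed lines give the share of all genes tested, 20.2% in WT and 19.4% in KO. The lists of the 49 genes lie well to the right of the lines; that of the RNA exosome lies closest to them in WT.

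Reads of Rn45s, the gene that RNA polymerase I transcribes, took a smaller share at 24 h than at 0 h. The gene spans the mature 18S, 5.8S and 28S sequences as well as the parts found only in the precursor, and the counts do not tell precursor from mature rRNA. Rn45s made up 16.1, 13.3 and 14.0% of the reads in genes in WT 0 h, 12.5, 14.2 and 17.5% in KO 0 h, 8.72, 9.09 and 9.55% in WT 24 h and 7.996, 8.16 and 7.95% in KO 24 h. Every 24 h library was below every 0 h library, and at 24 h every KO library was below every WT library. On the TMM scale Rn45s fell with time by 0.87 in WT (log2, SE 0.12, adjusted p = 7.41e-08) and by 1.12 in KO (SE 0.12, adjusted p = 1.83e-10). The two-sided exact permutation test of the shares gave p = 0.1 for each time comparison, which is the smallest p that 3 against 3 libraries allow. Between genotypes Rn45s did not pass at 0 h (log2 fold change 0.01, adjusted p = 0.993) or at 24 h (-0.24, SE 0.12, adjusted p = 0.713), where the exact permutation p of the shares was 0.9 and 0.1. The library kit removes rRNA with probes, so these reads are what remained after that step, and how its efficiency differed between libraries was not tested.

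**Figure D4:**
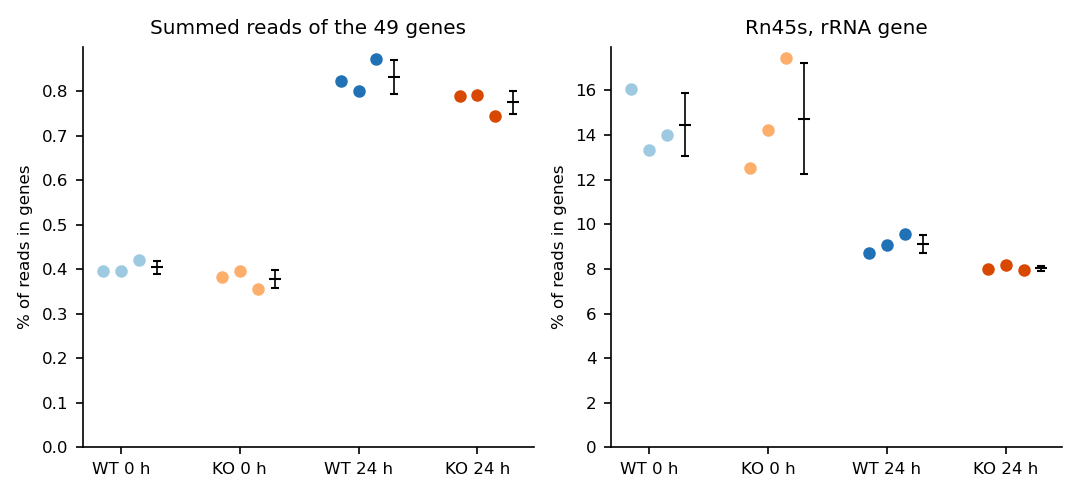
Percent of the reads in genes (y axis, from 0) taken by the 49 genes together (left) and by the rRNA gene Rn45s (right) in each library of the 4 groups (x axis); points are libraries and black marks give the mean and SD of 3. The mean share of the 49 genes went from 0.404% to 0.833% in WT while that of Rn45s went from 14.5% to 9.12%.

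Between the genotypes, 0 of the 49 genes passed at 0 h and 0 of 49 at 24 h, where 0.346% (38 genes) and 0.273% (30 genes) of all genes tested passed in edgeR. DESeq2 also called 0 of the 49 at each time. The estimates were mostly below 0, that is lower in KO. At 0 h, 42 of the 49 (85.7%) had a log2 fold change below 0, beside 49.0% of all genes, and the median was -0.09 beside 0.00. At 24 h, 39 of the 49 (79.6%) did, beside 52.2% of all genes, and the median was -0.14 beside -0.01. Of the 104 other genes of the pathway, 59 (56.7%) were below 0 at 0 h and 71 (68.3%) at 24 h. Their medians were -0.03 at 0 h and -0.05 at 24 h. At an unadjusted p under 0.05, 10 of the 49 were lower and 0 higher in KO at 0 h (4.33% and 3.67% of all genes), and 12 were lower and 0 higher at 24 h (3.82% and 3.24%). The 3 KO libraries were all below the 3 WT libraries for 7 of the 49 at 0 h (6.37% of all genes) and for 15 of the 49 at 24 h (7.19%), and all above them for 1 (Nop16) at 0 h (6.04%) and for 0 at 24 h (5.74%). The genes share their libraries and are not independent of one another, so these counts describe the libraries and are no test.

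The median of log2 CPM over the 49 genes showed the same offset library by library: 5.48, 5.45 and 5.50 in WT 0 h, 5.35, 5.39 and 5.23 in KO 0 h, 6.15, 6.08 and 6.17 in WT 24 h and 5.96, 6.03 and 6.06 in KO 24 h. The KO libraries were below the WT libraries at each time, by much less than either rose with time. The CD8 T cell markers stood higher in KO at 0 h as given above, and Cd8b1 passed the test there (log2 fold change 0.85, edgeR adjusted p = 0.0176). Of 3 B cell markers tested, Cd22 was lower in KO at 0 h (log2 fold change -2.49, adjusted p = 0.0118) and 2 did not pass. The summed level of the 6 B cell markers was 21.0 to 29.9 CPM in WT 0 h and 16.8 to 28.6 CPM in KO 0 h. The 4 NK cell markers summed to 45.2 to 54.9 CPM in WT 0 h and 54.2 to 64.4 CPM in KO 0 h. KO 24 h was the shallowest group, as given above, and at 24 h the 5 activation markers summed to 1115 to 1319 CPM in WT and 1011 to 1143 CPM in KO. The part of these in the offset was not tested.

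At 0 h the lowest p belonged to Gnl3, with levels of 29.97, 35.7 and 27.8 in WT 0 h against 23.2, 21.1 and 23.0 in KO 0 h, in CPM. Each KO library was below each WT library (log2 fold change -0.47, 95% interval -0.74 to -0.20, unadjusted p = 0.00109, adjusted p = 0.147). Nop2 (-0.39, interval -0.64 to -0.15), Nolc1 (-0.32, interval -0.52 to -0.12) and Utp20 (-0.29, interval -0.51 to -0.07) followed, with adjusted p = 0.218, 0.22 and 0.414. Their libraries, given above, were likewise apart by genotype at 0 h. None of these values passed after adjustment over all genes.

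At 24 h the 4 genes with the lowest p were Ubtf, Npm1, Nat10 and Nop14, with adjusted p between 0.566 and 0.584. Ubtf stood lower in each KO 24 h library than in each WT 24 h library (log2 fold change -0.22, interval -0.40 to -0.04), and for Npm1 1 KO library, replicate 2, lay within the WT range (-0.22, interval -0.40 to -0.04). Nat10 encodes the enzyme that acetylates cytidines of 18S rRNA and had levels of 70.9, 62.7 and 70.5 in WT 24 h against 61.1, 54.0 and 48.3 in KO 24 h, in CPM. Nop14, a processome protein, had levels of 98.7, 96.6 and 95.8 in WT 24 h against 81.3, 79.7 and 84.1 in KO 24 h, in CPM. Both were apart by genotype, with log2 fold changes of -0.31 (interval -0.57 to -0.06) and -0.25 (interval -0.45 to -0.04). At 0 h the libraries of Nat10 overlapped (levels of 39.5, 40.9 and 36.4 in WT 0 h against 43.4, 35.2 and 32.2 in KO 0 h, in CPM), and those of Nop14 did not (levels of 55.1, 53.5 and 55.4 in WT 0 h against 48.9, 47.0 and 50.3 in KO 0 h, in CPM).

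By role, the estimates for the abundant nucleolar proteins were lower in KO throughout: all 5 were below 0 at both times, from -0.47 (Gnl3) to -0.09 (Ncl) at 0 h and from -0.22 (Npm1) to -0.19 (Mybbp1a) at 24 h. The box C/D proteins (4 of 4), the RNA helicases (4 of 4) and the late 40S factors (3 of 3) were also below 0 at both times, whereas Nhp2 and Nop10 of the box H/ACA proteins were at or above 0 at 24 h. Of the large-subunit genes, 8 of 13 were below 0 at 0 h and 9 of 13 at 24 h. Gnl3, Nop14, Noc3l and Nop2 were the 4 genes whose KO libraries were all below the WT libraries at both times. They were picked out after their values were seen, and the share of all genes with this arrangement at both times was not counted. Across the 49 genes the genotype difference at 0 h and that at 24 h had a Pearson correlation of 0.29 and a Spearman correlation of 0.25. Of these genes, 35 were below 0 at both times and 3 above 0 at both. The shares of all genes with these signs at both times were likewise not counted, and the correlations over all genes were not computed.

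**Figure D5:**
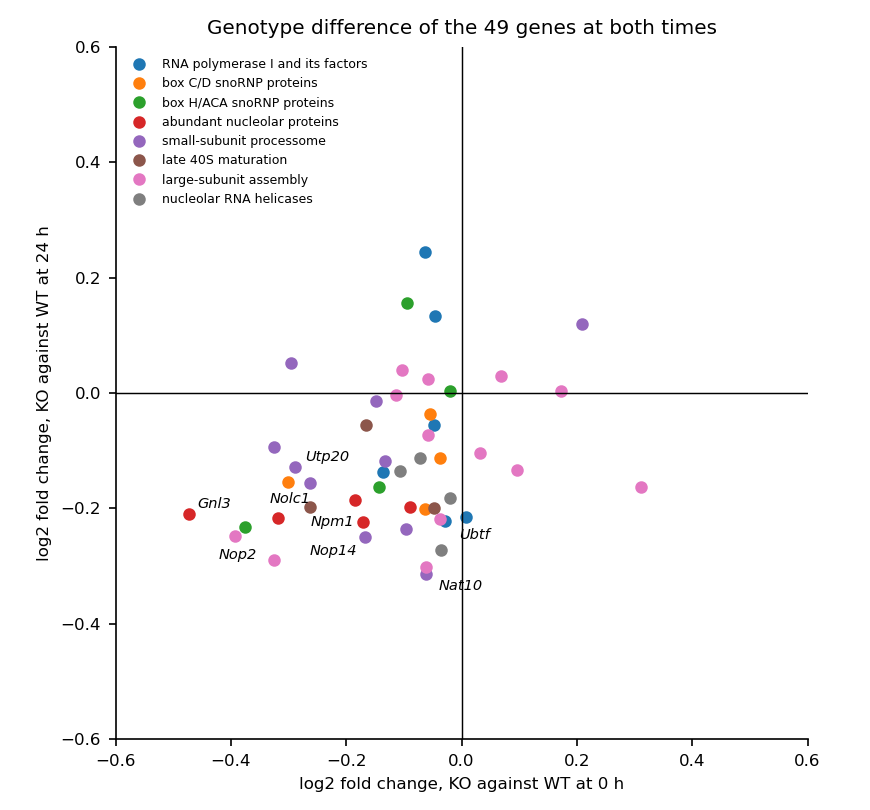
Log2 fold change of KO against WT at 0 h (x axis) and at 24 h (y axis) for each of the 49 genes, coloured by role, with the 4 genes of lowest p at each time named. Most points (35 of 49) lie to the lower left of the origin, and none passed the test at either time.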

How the data were processed

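The 12 files held read counts per gene symbol, as deposited by the authors, 1 library each. The submitters' processing notes name STAR 2.6.0c, DESeq and hg19. Since hg19 is a human build and the symbols are mouse symbols, the build that was used is uncertain. How the counting was done (program, annotation, strand) is not given in the sources used here. Per the labels' protocols, libraries were made from total RNA with rRNA reduced by probes. The 5 closing entries that name no gene held 22.8% to 35.4% (no feature), 0.412% to 0.576% (ambiguous) and 25.7% to 30.9% (aligned to several places) of listed reads and were left out.

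Genes with low counts were removed with filterByExpr (minimum count 10, minimum total 15). Counts were scaled with TMM and tested in edgeR 4.0.16 (R 4.3.3) with the quasi-likelihood test, 1 fit over 4 groups and 5 comparisons, adjusted over 10981 genes, threshold 0.05. The script was tested on simulated data. SE is the log2 fold change divided by the square root of F. Replicate pairs differed by more than sampling noise (chi-square per gene 3.16 to 15.3). Copies and exon overlaps came from GENCODE M21. Results for some listed genes are not reported here. The 49 genes and all lists were chosen with earlier results of these data known. Named genes were, per role, up to 3 with the largest passed change in WT over time and the smallest, and the 4 with the lowest p in the other comparisons; of other lists, up to 3 with the largest passed change, and any other gene was named after its values were seen. DESeq2 1.42.0, RLE size factors, other filters, a fit of only the groups compared, Rn45s left out, replicate blocks and leaving out each library were tried as alternatives.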

Additional observations from a re-analysis of the deposited data

How the results depend on the processing

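Over the refits, the number of the 49 genes that passed lay between 42 and 45 for 24 h against 0 h in WT (44 as reported) and between 38 and 43 in KO (43), and it was 0 in each genotype comparison and in the interaction. In WT 42 genes passed in each of 20 fits (Imp4 and Ddx10 did not in some, and Bop1 passed in some), and in KO 37 did (not Polr1e, Imp4, Ltv1, Wdr74, Nip7 and Dhx33). An alternative added after seeing the data left out the 8 genes with a copy of at least 95% identity or many shared exon bases. Of the genes kept, 37 of 41 passed in WT and 36 of 41 in KO. Of 1402 values of named genes under alternatives, 1374 kept direction and side of the threshold, 8 lost the call, 6 gained it and 14 changed sign. The sign changes were for genes near 0. Nop10 over time in KO gave 0.0101 with DESeq2, 0.0092 with RLE size factors, 0.029 with no filter, 0.022 with a stricter filter, 0.0055 with Rn45s left out and 0.012 with only the groups compared, and -0.13 to 0.16 when leaving out 1 library. Leaving out 1 library gave -0.035 to 0.23 for Imp3 over time in KO and -0.14 to 0.11 for Rn45s in KO against WT at 0 h. CACGTG was found for 4 genes (8.89%, beside 10.3% of the tested genes with a promoter entry) with the 250 bases before the start alone. In the whole promoters, 28 genes (62.2%, beside 37.3%) had CACGTG or a variant of it (CATGTG or its reverse complement CACATG, or CACGCG or its reverse complement CGCGTG). With the 250 bases before the start alone, 14 genes (31.1%, beside 32% of the tested genes with an entry) had CACGTG or a variant. The median difference between genotypes kept its sign when leaving out each library, -0.12 to -0.065 at 0 h and -0.18 to -0.10 at 24 h. With replicate numbers as a block, 44, 43, 0, 0 and 0 of the genes passed, as without it; the numbers are not stated to pair the mice, same-numbered libraries had correlations of -0.10 to 0.099, and not every library matched its own number best. The interaction needs all groups, so a fit of only the groups compared was not run for it. With 3 libraries a group, the 95% intervals of the genotype differences reached a median of 0.26 (0 h) and 0.25 (24 h) to either side on the log2 scale (0.18 to 0.40 and 0.17 to 0.40 for single genes).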
